A study of Mus musculus with 9 samples.

Results

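The 7 genes described here are those for the mouse Fc gamma receptors Fcgr1, Fcgr2b, Fcgr3 and Fcgr4, for their signalling adaptor Fcer1g, for the kinase Syk, and for the neonatal Fc receptor chain Fcgrt. They were taken by symbol from tables of 23238 gene symbols, each was found on 1 entry, and all 7 were among the 12292 genes with enough reads to be tested. Reads from the 3′ ends of transcripts were counted in microglia, the resident macrophages of the brain, that had been sorted as CD45+CD11b+P2ry12+ cells on day 1. Each of the 9 libraries, 3 to a group, was a pool of 3 mice. All mice were adult wild-type (WT) C57BL/6N females. Normal mice received no treatment. NMO mice received an injection into 1 striatum of IgG from patients with neuromyelitis optica (NMO-IgG, antibody against the astrocyte water channel aquaporin-4) together with human complement. NMO+Clodronate (NMO+CL) mice received the same mixture and also clodronate liposomes by intraperitoneal injection before it, which deplete circulating monocytes and macrophages. No group of these libraries received control IgG or empty liposomes. Injection, antibody and complement therefore cannot be told apart in the comparison with Normal, nor clodronate and liposomes in that with NMO.

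Fc gamma receptors bind the constant part of IgG and let macrophages act on whatever the antibody has coated. Fcgr1 encodes the high-affinity activating receptor, and Fcgr3 and Fcgr4 encode activating receptors of lower affinity. All of these activating chains signal through the common gamma chain encoded by Fcer1g, which carries an immunoreceptor tyrosine-based activation motif (ITAM). Kinases of the Src family phosphorylate the motif, Syk docks on it, and phagocytosis and cytokine release can follow. Fcgr2b encodes the only inhibitory receptor of the family, which carries an inhibitory motif and recruits the lipid phosphatase encoded by Inpp5d. Fcgrt encodes the heavy chain of the neonatal Fc receptor, which pairs with B2m inside cells and returns IgG from endosomes instead of triggering phagocytosis. In the brain these receptors are found mainly on microglia and on macrophages, and blood monocytes and neutrophils carry several of them too.

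In the GRCm38 assembly, with the gene annotation of GENCODE M21, 4 of the 7 genes lie within 276 kb of chromosome 1: Fcgr2b (170958617 to 170976547, minus strand), Fcgr4 (171018920 to 171029761, plus strand), Fcgr3 (171051174 to 171064935, minus strand) and Fcer1g (171229572 to 171234365, minus strand). Fcgr1 lies on chromosome 3 (96282909 to 96293969, minus strand), Fcgrt on chromosome 7 (45092990 to 45103851, minus strand) and Syk on chromosome 13 (52583173 to 52648792, plus strand). All are protein-coding genes. Exons of Fcgr2b overlap those of Gm38204, an antisense gene on the other strand, and the use of strand in the counting is not given in the sources used here, so reads of these 2 genes cannot be told apart with certainty.

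The promoters of the 4 Fc gamma receptor genes are shown because these genes neighbour each other or share ligands, yet their transcripts differed in how they moved between groups. Each sequence runs from 250 bases before the transcript start to 50 after it, as RefSeq lists it for GRCm38.p6, with 5′ to 3′ along the gene. Promoters were found for 7 of 7 genes, and the first of those listed for Fcgr3 is shown. The windows for Fcgr3 lie wholly inside its GENCODE span, whose 5′ end is at 171064935. The sequence at that end was not searched. Capitals mark a match to either of a pair of motifs, the PU.1 motif GAGGAAGT (PU.1 is a transcription factor of myeloid cells) and the gamma-activated site TTCNNNGAA, on either strand.
Fcgr4, chr1:171018676-171018975, plus strand: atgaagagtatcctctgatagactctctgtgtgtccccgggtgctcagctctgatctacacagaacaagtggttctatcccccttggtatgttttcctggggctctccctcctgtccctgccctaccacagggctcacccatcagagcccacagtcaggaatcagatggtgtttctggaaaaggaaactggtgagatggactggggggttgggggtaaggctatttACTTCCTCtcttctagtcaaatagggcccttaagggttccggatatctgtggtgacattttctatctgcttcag
Fcgr3, chr1:171059354-171059653, minus strand: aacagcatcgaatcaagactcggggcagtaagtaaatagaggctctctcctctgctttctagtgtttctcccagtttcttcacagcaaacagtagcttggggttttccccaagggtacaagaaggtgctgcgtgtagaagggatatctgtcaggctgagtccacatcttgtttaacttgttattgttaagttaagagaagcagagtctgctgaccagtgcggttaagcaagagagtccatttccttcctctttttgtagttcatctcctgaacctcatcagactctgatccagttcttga
Fcgr2b, chr1:170976022-170976321, minus strand: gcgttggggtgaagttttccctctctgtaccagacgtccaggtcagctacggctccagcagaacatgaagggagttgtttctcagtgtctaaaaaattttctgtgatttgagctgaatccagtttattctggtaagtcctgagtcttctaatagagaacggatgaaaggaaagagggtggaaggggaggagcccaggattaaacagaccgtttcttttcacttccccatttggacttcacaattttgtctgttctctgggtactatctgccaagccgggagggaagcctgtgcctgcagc
Fcgr1, chr3:96293920-96294219, minus strand: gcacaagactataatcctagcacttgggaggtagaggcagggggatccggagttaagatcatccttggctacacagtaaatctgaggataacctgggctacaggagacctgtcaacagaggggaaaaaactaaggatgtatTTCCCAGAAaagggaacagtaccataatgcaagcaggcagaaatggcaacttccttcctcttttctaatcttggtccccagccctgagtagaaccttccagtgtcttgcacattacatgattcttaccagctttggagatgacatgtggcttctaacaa
Among these 7 genes, the PU.1 letters occurred in the promoter of Fcgr4 alone, on the reverse strand and beginning 24 bases before the start. Of 32851 promoters of the same length, 3.2% held them. The gamma-activated site occurred in that of Fcgr1 alone, beginning 109 bases before the start, and 8.3% of all promoters held it. The shorter Ets core GGAAGT, which is contained in the PU.1 motif, was found for Fcgr1, Fcgr2b, Fcgr4 and Syk and in 23.8% of all promoters. The AP-1 motif TGANTCA, found in 7.81% of promoters, and the letters TATAAA, in 13.6%, were in none of the 7 genes' windows. These matches describe the sequences only, and no binding was measured.

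The libraries held 5788234 to 7837219 counts. Levels are given as CPM, counts per 1000000 of the library size after TMM normalization, a trimmed mean of the gene-wise ratios between libraries, and errors are standard deviations over 3 libraries. A single ribosomal RNA entry, Rn45s, took 16.0% to 31.0% of the counts. The labelled cell type was checked on its markers, and the summed level of 9 microglia markers (P2ry12, Tmem119, Cx3cr1, Sall1, Siglech, Gpr34, Olfml3, Fcrls and Csf1r) was 29930 to 35692 CPM across the Normal libraries, 25382 to 29942 CPM across the NMO libraries and 16748 to 25817 CPM with clodronate. Of these 9, 1 was called lower in NMO than in Normal, 4 were called lower in NMO+CL than in NMO and 7 lower in NMO+CL than in Normal, where 0.0244%, 1.07% and 4.43% of all genes were called lower. P2ry12, the receptor used in the sort, had means of 2443 ± 337 CPM in Normal, 1648 ± 100 CPM in NMO and 353 ± 92.1 CPM with clodronate. NMO replicate 2 stood apart by having 0 counts of Cbr2, a marker of border-associated macrophages, where the other 8 libraries had 741 to 2467. Normal replicate 1 and NMO+CL replicate 1 had the highest summed neutrophil markers of their groups, 592 and 1418 CPM. For the 7 genes and the signalling genes named below, it is said where leaving out 1 library decided a call. Where every library of a group is said to lie above or below those of another, the share of all genes that did so was not counted. Such remarks describe the levels only. In such bulk samples, fewer cells of a type and less RNA per cell cannot be told apart.

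**Figure D1:**
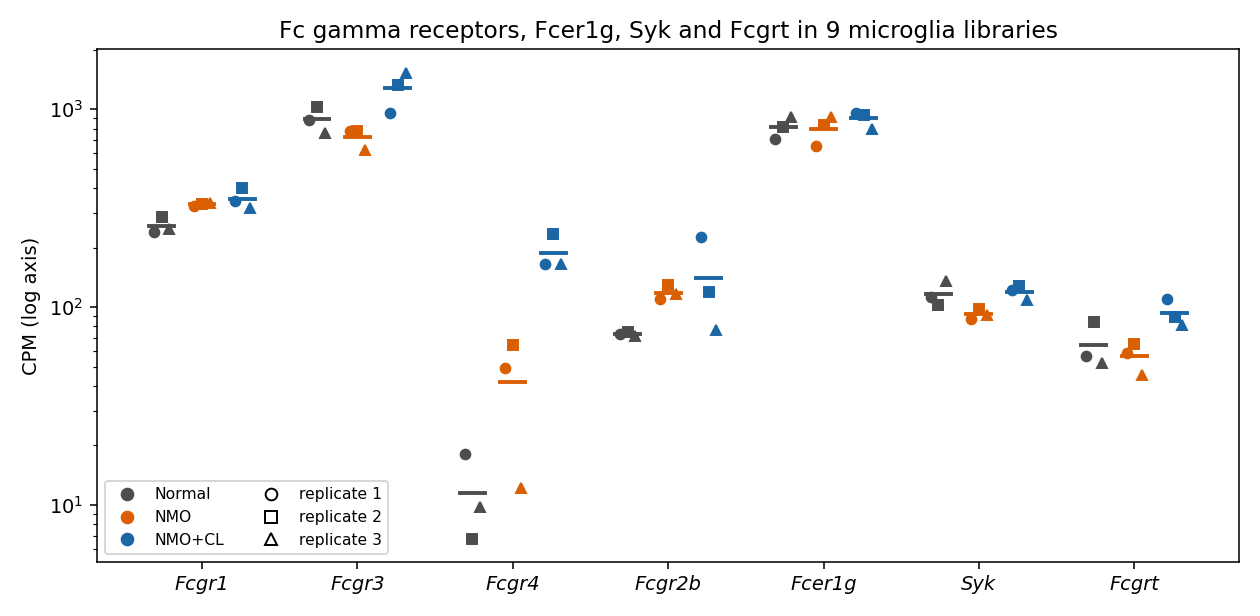
Level of each gene in each library in CPM on a log axis, with the color giving the group, the symbol the replicate number and the bar the mean of 3 libraries. Fcgr4 spans the widest range, from 6.77 CPM in Normal replicate 2 to 235 CPM in NMO+CL replicate 2.

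NMO was set against Normal to ask how the receptors stood in microglia 1 day after antibody and complement were injected. None of the 7 genes was called at an adjusted p under 0.05, where 0.496% of all 12292 genes were called by the edgeR quasi-likelihood test. Of the 7, 2 had an unadjusted p under 0.05, Fcgr4 and Fcgr2b, where 9.51% of all genes did. DESeq2 and limma-voom called 0 of 7 each, with 1.81% and 0.350% of all genes called. The median log2 fold change of the 7 genes was -0.02, beside -0.01 over all genes tested. The largest difference was in Fcgr4, whose level varied most between the NMO libraries.

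Fcgr4, the activating receptor that corresponds to the human receptor encoded by FCGR3A, had 18.2, 6.77 and 9.76 CPM in Normal replicates 1, 2 and 3, from 114, 45 and 58 counts. In NMO replicates 1, 2 and 3 it had 49.5, 64.0 and 12.2 CPM, from 394, 535 and 76 counts. Replicates 1 and 2 of NMO were above every Normal library, while replicate 3 lay within the Normal range. The means were 11.6 ± 5.91 and 41.9 ± 26.8 CPM (n = 3 each), a 3.64-fold difference (log2 fold change 1.86 ± 0.46, standard error, SE, adjusted p = 0.0832). Without NMO replicate 3 the log2 fold change of Fcgr4 rose to 2.28 and the adjusted p was 0.00357, and the adjusted p was 0.0454 with library totals alone and 9.26e-09 without a filter on low counts. Over all 14 alternatives the adjusted p ran up to 0.359, and Fcgr4 was called in 3 of them.

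Fcgr1, the high-affinity receptor, had 241, 286 and 248 CPM in Normal and 325, 333 and 336 CPM in NMO. The NMO libraries were all above the Normal ones and close to each other, with means of 258 ± 24.5 and 331 ± 5.92 CPM. The 1.28-fold difference (log2 fold change 0.36, 95% interval -0.01 to 0.72) did not pass the test (adjusted p = 0.549). Fcgr3, the low-affinity activating receptor, had 886, 1023 and 761 CPM in Normal and 780, 774 and 620 CPM in NMO. These groups overlapped, and the log2 fold change of -0.30 (interval -0.70 to 0.11) had an adjusted p of 0.701.

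The inhibitory receptor gene Fcgr2b had 72.8, 75.1 and 71.7 CPM in Normal, closer to each other than those of any other of the 7 genes in Normal. In NMO it had 110, 130 and 116 CPM. Every NMO library was above every Normal library, at means of 119 ± 9.97 against 73.2 ± 1.74 CPM. The difference was 1.62-fold (log2 fold change 0.70 ± 0.29 SE, unadjusted p = 0.0288), and after adjustment over all genes it was not called (adjusted p = 0.457, 0.155 to 0.723 over the alternatives).

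Downstream of the receptors, Fcer1g ranged from 707 to 914 CPM in Normal and from 651 to 914 CPM in NMO, so that its groups covered nearly the same range (log2 fold change -0.02, interval -0.39 to 0.35, adjusted p = 0.992). Syk had 102 to 136 CPM in Normal and 87.5 to 98.3 CPM in NMO. All NMO libraries lay below all Normal libraries, but the log2 fold change of -0.34 (interval -0.77 to 0.08) did not pass the test (adjusted p = 0.646). Fcgrt had 52.3 to 84.4 CPM in Normal and 45.6 to 65.5 CPM in NMO (log2 fold change -0.19, adjusted p = 0.931).

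NMO+CL was set against NMO to ask how clodronate liposomes altered the receptors after injection. Fcgr4 and Fcgr3, both activating receptors, rose, 4.48-fold and 1.76-fold. They were 2 of 7 genes called, where 1.59% of all genes tested were called, 0.529% higher and 1.07% lower. The other 5 genes were not called. An unadjusted p under 0.05 was found for 3 of the 7 and for 12.4% of all genes, and DESeq2 and limma-voom each called 2, with 3.86% and 1.49% of all genes called. All 7 log2 fold changes were above 0, with a median of 0.37 beside -0.01 over all genes. This comparison shares its NMO libraries with the preceding one and is not independent of it.

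Fcgr4 had 165, 235 and 165 CPM in NMO+CL replicates 1, 2 and 3, from 1129, 1453 and 1033 counts. Each of these was above the highest NMO library, at 64.0 CPM, and the mean was 189 ± 40.6 CPM against 41.9 ± 26.8 CPM in NMO. The log2 fold change reached 2.16 ± 0.44 SE (adjusted p = 0.0184, higher in 3 of 3 libraries). It was called in 12 of 14 alternatives. Without NMO replicate 1 the adjusted p was 0.0523 and without NMO+CL replicate 2 it was 0.0919, with log2 fold changes of 2.33 and 1.97.

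Fcgr3 had 961, 1334 and 1531 CPM in NMO+CL. These libraries also lay above all NMO libraries, whose highest was 780 CPM, and they differed from each other more than the NMO libraries did (1275 ± 289 against 725 ± 90.4 CPM). The log2 fold change of 0.82 had a standard error of 0.19 and an adjusted p of 0.0403. This call was near the threshold and was kept in 6 of 14 alternatives, among them DESeq2 (adjusted p = 4.13e-04) and limma-voom (0.0144). It was lost with library totals alone (0.0708) and without any of Normal replicate 1 (0.0576) or 2 (0.0632), NMO replicate 1 (0.100), 2 (0.0585) or 3 (0.128) and NMO+CL replicate 2 (0.168) or 3 (0.120), while the log2 fold change stayed between 0.66 and 0.98.

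Reads that align to several places were counted, which matters for these related genes. Fcgr2b and Fcgr3 share 509 aligned transcript bases that are 96.5% identical, but that stretch ends 678 bases from the 3′ end of Fcgr3 and 2786 bases from that of Fcgr2b, and within their last 500 bases, where 3′ end reads fall, only 35 bases aligned. The last 500 bases of Fcgr3 held a stretch resembling 23 other genes over at least 75 bases, the best of them 116 bases of Chek2 at 73.3% identity, and those of Fcgr1 resembled 10 genes. The other 5 genes had no such match.

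Fcgr1 had 343, 399 and 319 CPM in NMO+CL, overlapping the NMO libraries (log2 fold change 0.09, interval -0.27 to 0.46, adjusted p = 0.899). Fcgr2b had 226, 120 and 76.5 CPM. Its NMO+CL libraries ran from near the Normal level to above every other library, a standard deviation of 77.0 CPM around a mean of 141 CPM. The log2 fold change against NMO was 0.25 (interval -0.36 to 0.86, adjusted p = 0.812), and without NMO+CL replicate 1 its sign turned, to -0.28.

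Fcer1g had 800 to 963 CPM in NMO+CL (difference 0.17 on the log2 scale, interval -0.20 to 0.54, adjusted p = 0.783), so the adaptor was not called. Syk had 108 to 128 CPM, above all NMO libraries, without being called (log2 fold change 0.37, interval -0.05 to 0.79, adjusted p = 0.472). Fcgrt had 81.7 to 111 CPM, also above all NMO libraries. Its 1.66-fold difference had a log2 fold change of 0.73 and a standard error of 0.25, and after adjustment the p was 0.195.

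NMO+CL against Normal measures injection and clodronate liposomes together and shares its libraries with the other comparisons. Fcgr4 was the single gene of the 7 that was called, 16.3-fold higher than in Normal. With 9.23% of all tested genes called in this comparison, 1 of 7 is close to that share. By p, Fcgr4 stood at rank 42 of 12292 genes. Of the 7 genes, 5 had an unadjusted p under 0.05, where 22.3% of all genes did. DESeq2 called 4 and limma-voom 1, with 12.8% and 8.79% of all genes called. All 7 log2 fold changes were above 0, with a median of 0.52 beside -0.01 over all genes.

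Against Normal, the mean of Fcgr4 rose from 11.6 ± 5.91 to 189 ± 40.6 CPM (log2 fold change 4.03 ± 0.49 SE, adjusted p = 6.05e-05). Its lowest NMO+CL library held 1033 counts and its highest Normal library 114. It was called in 14 of 14 alternatives, with log2 fold changes of 3.75 to 4.52 and adjusted p values up to 0.00116. Fcgr1 was higher in every NMO+CL library than in any Normal one (354 ± 41.2 against 258 ± 24.5 CPM) and had a log2 fold change of 0.45 (interval 0.09 to 0.82, adjusted p = 0.120), which DESeq2 alone called (0.0316). Fcgr3 differed by 0.52 (interval 0.12 to 0.92, adjusted p = 0.105) with overlapping libraries, and was called by DESeq2 (0.0344) and without NMO+CL replicate 1 (0.0313).

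Fcgr2b had a log2 fold change of 0.94 against Normal (interval 0.33 to 1.56), with every NMO+CL library above the Normal ones, although replicate 3, at 76.5 CPM, exceeded the highest Normal library, at 75.1 CPM, by little. Its adjusted p of 0.0523 lay just above the threshold, and it was called in 5 of 14 alternatives, among them DESeq2 and the fit without NMO replicate 2. NMO+CL replicate 1 decided the size: without it the log2 fold change became 0.42 (adjusted p = 0.350), and without replicate 3 it became 1.24 (adjusted p = 0.00423). Fcer1g (log2 fold change 0.15, adjusted p = 0.730), Fcgrt (0.54, 0.216) and Syk (0.03, 0.966) were not called. Syk had 120 ± 10.2 CPM in NMO+CL and 117 ± 17.3 CPM in Normal, and its interval of -0.39 to 0.45 leaves room for a change in either direction.

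**Figure D2:**
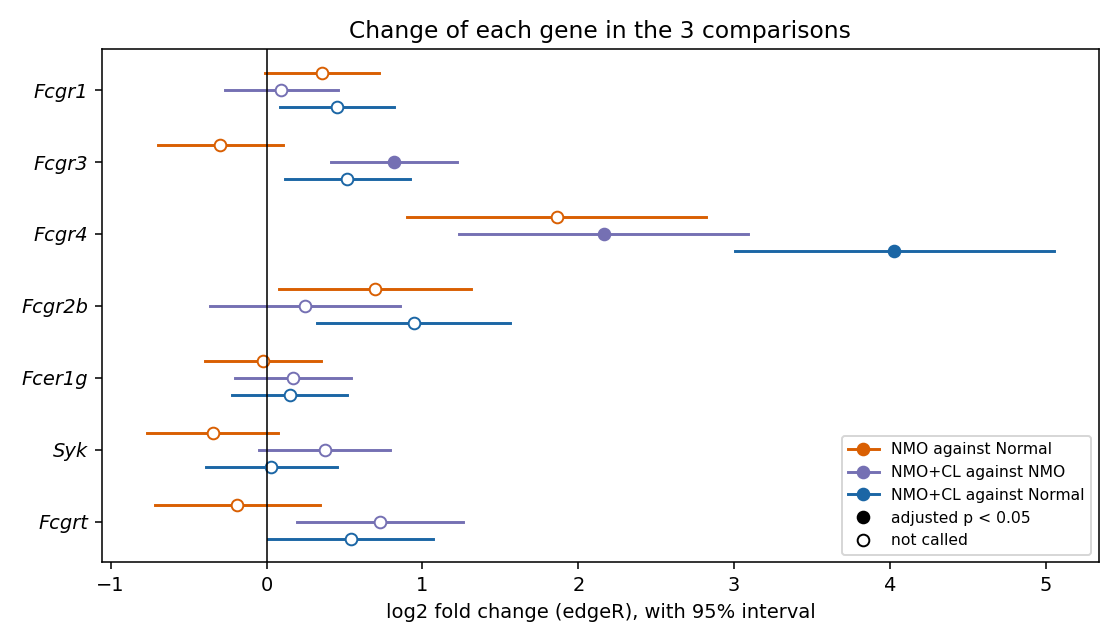
Log2 fold change of each gene in the 3 comparisons from edgeR, with lines for the 95% interval, filled points for an adjusted p under 0.05 and open points for the rest. The filled points are Fcgr4 at 2.16 and 4.03 and Fcgr3 at 0.82, and the comparisons share libraries.

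Because activating and inhibitory receptors compete for the same antibody, their reads were also set against each other within each library, where library scaling drops out. These ratios and shares are of 3′ end reads, which were not divided by transcript length, and they are compared between groups and not read as relative amounts of protein. They are scores over genes chosen with results known, so no test was made. The summed reads of Fcgr1, Fcgr3 and Fcgr4 over those of Fcgr2b had log2 ratios of 3.97, 4.13 and 3.83 in Normal replicates 1, 2 and 3 and 3.39, 3.17 and 3.06 in NMO. Every NMO library was below every Normal library, and the means of 3.98 ± 0.15 and 3.21 ± 0.17 correspond to 15.8 and 9.24 activating reads for each inhibitory read. In NMO+CL the log2 ratios were 2.70, 4.04 and 4.72. Replicate 1 lay below all other 8 libraries and replicate 3 above them, so that this group, at 3.82 ± 1.03, covered the range of both others. With Fcgr3 alone over Fcgr2b the means were 3.59, 2.61 and 3.30.

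The make-up of the receptor reads differed in the same libraries. Fcgr3 gave 72.0% ± 1.98 of the reads of the 4 Fc gamma receptors in Normal, 59.5% ± 2.25 in NMO and 64.6% ± 8.27 with clodronate. Fcgr1 gave 21.0% ± 1.55, 27.4% ± 3.10 and 18.2% ± 2.63, and Fcgr2b 5.98% ± 0.59, 9.79% ± 1.00 and 7.57% ± 5.10. The share of Fcgr4 was 0.958% ± 0.51 in Normal and 3.32% ± 1.97 in NMO, and with clodronate it was 9.63% ± 1.68, where its lowest library, at 7.91%, exceeded the highest NMO library, at 4.93%. The sum of the 4 receptors was 1233 ± 151 CPM in Normal and 1216 ± 115 CPM in NMO, a nearly equal total with a different make-up. In NMO+CL it was 1696, 2088 and 2091 CPM, above all other libraries. Of the 742 CPM by which the mean sum of NMO+CL exceeded that of NMO, Fcgr3 accounted for 551 CPM (74.2%) and Fcgr4 for 147 CPM (19.8%). Set against the adaptor, the log2 ratio of Fcgr1, Fcgr3 and Fcgr4 to Fcer1g was 0.51 ± 0.31 in Normal, 0.47 ± 0.37 in NMO and 1.01 ± 0.37 with clodronate, with overlapping libraries.

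**Figure D3:**
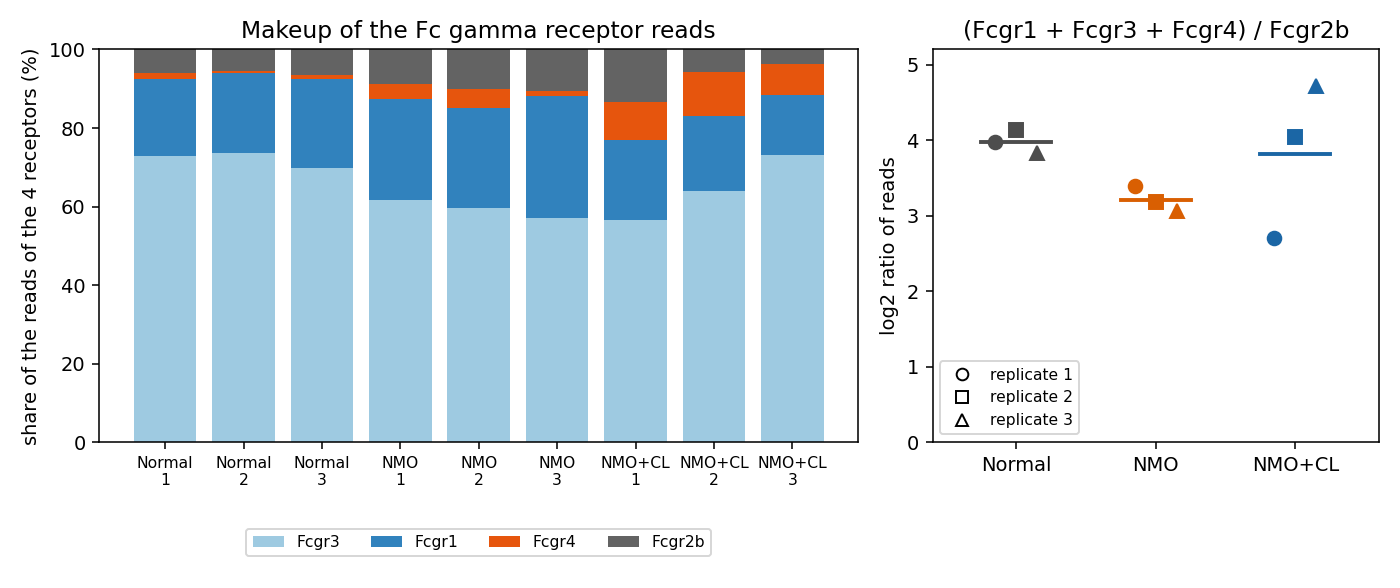
Left, share of each receptor among the reads of the 4 Fc gamma receptors, in percent, for each library; right, log2 ratio of activating to inhibitory receptor reads per library, with bars for group means. NMO libraries sit at 3.06 to 3.39, below the Normal libraries at 3.83 to 4.13, and the NMO+CL libraries spread from 2.70 to 4.72.

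The genes around the receptors were followed in 4 lists of 61 genes, of which 52 were tested. In NMO against Normal 0 were called by edgeR, with 2 at an unadjusted p under 0.05 (9.51% of all genes) and 0 by DESeq2 and by limma-voom, and the median log2 fold change was 0.048. In NMO+CL against NMO 1 of 52 was lower and 0 were higher (median -0.12), close to the 1.59% of all genes called, and 12 of 52 had an unadjusted p under 0.05 (12.4% of all genes). In NMO+CL against Normal 3 were higher and 4 were lower (median -0.066), 7 of 52 genes where 9.23% of all genes were called, and 16 of 52 had an unadjusted p under 0.05 (22.3% of all genes). The median over all genes was -0.01 in each comparison. The inhibitory effectors are described first.

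Of 14 inhibitory effectors, 3 rose in NMO+CL against Normal, 0 fell and 11 were not called, with a median log2 fold change of 0.00, where 4.79% of all genes were called higher and 4.43% lower. Dok3, an adaptor that dampens immunoreceptor signalling, had 59.0, 38.1 and 74.7 CPM in Normal and 91.3, 105 and 127 CPM in NMO+CL (log2 fold change 0.91 ± 0.25 SE, adjusted p = 0.0308). Sla and Sla2 encode Src-like adaptors that promote removal of antigen receptors from the surface. Sla rose from 152 ± 14.7 to 272 ± 65.8 CPM (0.84, adjusted p = 0.0143) and Sla2 from 55.2 ± 4.35 to 103 ± 15.5 CPM (0.90, adjusted p = 0.0124). Sla and Sla2 were each called in 12 of 14 alternatives and Dok3 in 10, and leaving out single Normal or NMO+CL libraries took their adjusted p up to 0.154 for Dok3, 0.103 for Sla and 0.0623 for Sla2. Against NMO, Sla was not called (log2 fold change 0.65, adjusted p = 0.144), but it was with DESeq2 and without NMO+CL replicate 3. Inpp5d, the phosphatase that Fcgr2b recruits, was not called in any comparison (log2 fold changes -0.10, -0.13 and -0.23 in the order given above), nor was the phosphatase gene Ptpn6 (0.14, -0.07 and 0.07).

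Of 26 proximal kinases and activating effectors tested, 2 fell in NMO+CL against Normal and 24 were not called, with a median of -0.096, a share of calls near the 4.43% of all genes called lower. Pik3cg, a catalytic subunit of phosphoinositide 3-kinase, had 142, 124 and 214 CPM in NMO and 83.9, 82.8 and 70.8 CPM in NMO+CL. All NMO+CL libraries were below all others, with a log2 fold change of -1.01 against NMO (adjusted p = 0.0262, called in 8 of 14 alternatives) and -1.04 against Normal (adjusted p = 0.00624, called in 14 of 14). Against NMO the call of Pik3cg was lost in 6 fits that left out 1 library, with adjusted p values up to 0.124. Prkcd, a protein kinase C, fell from 230 ± 36.7 CPM in Normal to 123 ± 17.4 CPM in NMO+CL (-0.90, adjusted p = 0.0161, called in 11 of 14 alternatives, up to 0.0909 without a library). Lyn, the Src family kinase, averaged 794 ± 75.4 CPM in Normal, 1039 ± 112 CPM in NMO and 919 ± 48.9 CPM with clodronate and was not called (adjusted p = 0.441, 0.732 and 0.515). Btk (log2 fold changes -0.60, 0.39 and -0.21) and Plcg2 (0.17, 0.29 and 0.45), a kinase and a phospholipase that act after Syk, were not called either.

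Among 7 tested relatives of the Fc receptors, 2 fell in NMO+CL against Normal (median -0.43, with 4.43% of all genes called lower) and 0 were called in the other comparisons. Fcrls, an Fc receptor-like gene that also marks microglia, had 2066, 2726 and 2225 CPM in Normal and 1357, 1186 and 1799 CPM in NMO+CL. The groups did not overlap, and its log2 value fell by 0.69 (adjusted p = 0.0173, called in 11 of 14 alternatives, up to 0.113 without a library). Against NMO the log2 fold change of Fcrls was -0.56 (adjusted p = 0.139). It was called there in 1 of 14 alternatives, without NMO+CL replicate 3 (0.0370). Fcrl1 fell from 28.7 ± 5.90 to 9.76 ± 6.08 CPM (-1.56, adjusted p = 0.0412), called in 6 of 14 alternatives, and the highest adjusted p was 0.165. B2m, the partner chain of Fcgrt, had log2 fold changes of -0.27, -0.16 and -0.43 and was not called. Of 5 tested genes in the list of other ITAM adaptors and receptors that use Fcer1g, 0 were called in each comparison. This list also holds the adaptor gene Hcst, which is neither. The median log2 fold changes of the 5 were 1.69, -0.11 and 0.98 in NMO against Normal, NMO+CL against NMO and NMO+CL against Normal, with 5, 2 and 4 of 5 above 0. Some of these genes were near the floor. Pira2 had 5, 3 and 1 counts in Normal and 23, 15 and 0 in NMO. Clec4d and Clec4n had 0 and 1 counts in all over the Normal libraries, and with both set against a floor of 3 counts a library the first median was 1.62 and the last was again 0.98. Tyrobp, the other main ITAM adaptor of microglia, averaged 621 ± 125 CPM in Normal, 631 ± 78.0 CPM in NMO and 635 ± 177 CPM with clodronate (log2 fold changes 0.02, 0.01 and 0.03).

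For the called genes Fcgr4 and Fcgr3, the genes with the most similar profile were found among 8840 genes that averaged at least 50 counts a library, by the root-mean-square difference of log2 CPM over the 9 libraries after removal of each gene's mean. Nearest to Fcgr4 were Gpr65, a proton-sensing receptor (difference 0.46), Cst7, an inhibitor of lysosomal proteases (0.51), and Cybb, the catalytic chain of the phagocyte NADPH oxidase (0.56), where Fcgr4 itself had a standard deviation of 1.93. Gpr65 averaged 16.2 ± 3.95 CPM in Normal, 45.4 ± 16.6 CPM in NMO and 234 ± 88.8 CPM with clodronate and was called in all 3 comparisons (log2 fold changes 1.49, 2.36 and 3.85, adjusted p = 0.0447, 0.00135 and 4.17e-06). Cst7 (log2 fold change 3.86, adjusted p = 0.00200) and Cybb (3.46, 0.00120) were called in NMO+CL against Normal and not in the other comparisons. These genes were picked for their likeness over the same libraries, so their direction is no separate evidence. Nearest to Fcgr3 were Kif3b (0.11), a kinesin subunit, Ctr9 (0.14), a subunit of a transcription elongation complex, and Alg11 (0.16), a glycosyltransferase, none of which was called in any comparison. Among the 7 genes, the closest pair was Fcer1g and Syk (0.19), the next Fcgr1 and Fcer1g (0.23) and then Fcgr3 and Fcgrt (0.29). Fcgr2b and Fcgr3 were 0.68 apart, and Fcgr4 was 1.59 to 1.80 from every other gene.

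**Figure D4:**
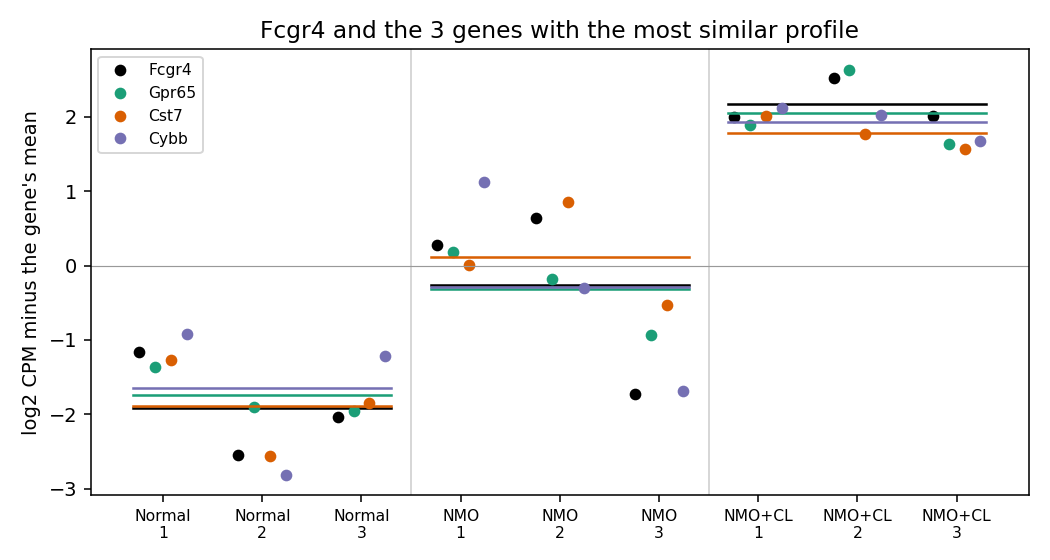
Centred log2 CPM (each gene's mean over 9 libraries set to 0) of Fcgr4 and the genes nearest to it, Gpr65, Cst7 and Cybb, in each library, with lines for group means. In the third NMO library Fcgr4 and Cybb lie near their Normal levels.

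Markers of other cells that carry Fc gamma receptors were present in the libraries. Each sum below is over several genes, so its size is not comparable with the level of a single receptor gene. Summed over the 11 neutrophil markers in the tables, the level was 98.9 to 592 CPM in Normal, 169 to 495 CPM in NMO and 311 to 1418 CPM with clodronate, and 0 of 10 tested were called in any comparison. Of these 10, 7, 9 and 9 had a log2 fold change above 0 in the comparisons in the order given above (medians 0.31, 0.86 and 1.02). Elane was at 0 in each NMO library, and no other neutrophil marker was at 0 throughout a group. By group means, S100a8 and S100a9 made up most of the neutrophil sum. They averaged 72.0 and 77.1 CPM in Normal, 86.3 and 100 CPM in NMO, and 281 and 315 CPM with clodronate. The 10 monocyte markers summed to 32.8 to 59.0, 48.0 to 97.2 and 55.7 to 116 CPM, none was at 0 throughout a group, and 1 of 10 was called, Fn1 in NMO+CL against Normal (log2 fold change 2.45, adjusted p = 0.0218), near the 9.23% of all genes called there. Of the 10, 9, 5 and 7 had a log2 fold change above 0 in NMO against Normal, NMO+CL against NMO and NMO+CL against Normal (medians 1.11, 0.16 and 1.59). Between NMO and NMO+CL the difference in the sum came mainly from Fn1, at means of 6.97 and 24.2 CPM, and Chil3, at 8.32 and 24.9 CPM. Ccr2, the chemokine receptor of inflammatory monocytes, had means of 15.3 CPM in NMO and 5.60 CPM in NMO+CL and was not called. The 8 border macrophage markers summed to 160 to 308, 13 to 196 and 226 to 412 CPM, with 0 of 7 tested called and Cd163 at 0 in the NMO and NMO+CL groups. The 10 lymphocyte markers summed to 12 to 20.5, 8.81 to 20.6 and 5.99 to 15.4 CPM, with Cd3e at 0 in each of the 9 libraries, Klrb1c and Ncr1 at 0 in Normal, Gzmb and Ncr1 at 0 in NMO, and Ms4a1 and Cd8a at 0 in NMO+CL. Ly6g was not analysed here.

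The group means of Fcgr4 in Normal, NMO and NMO+CL, 11.6, 41.9 and 189 CPM, stood in the same order as those of the monocyte sums, 42.0, 65.8 and 84.8 CPM, and of the neutrophil sums, 272, 329 and 765 CPM. The order of the monocyte means was the same with any 1 library left out. For the neutrophil means Normal exceeded NMO without NMO replicate 3 (246 CPM in NMO) and without Normal replicate 2 or 3 (359 and 345 CPM in Normal), the Normal mean was 112 CPM without replicate 1, and the NMO+CL mean was 439 CPM without replicate 1. The border macrophage sums had means of 231, 126 and 308 CPM. The 3 Normal libraries also had the same order of Fcgr4, neutrophil sum and monocyte sum, and the libraries of NMO and of NMO+CL did not. The highest Fcgr4 level in NMO+CL, 235 CPM in replicate 2, stood in the library with the lowest neutrophil sum of that group, 311 CPM. Normal replicate 1 had a neutrophil sum of 592 CPM and a monocyte sum of 59.0 CPM with 18.2 CPM of Fcgr4, while NMO+CL replicate 3 had 567 and 55.7 CPM with 165 CPM of Fcgr4. Fcgr2b in NMO+CL, at 226, 120 and 76.5 CPM, followed the order of the monocyte sums, at 116, 83.1 and 55.7 CPM, and its highest library was also the one with 1418 CPM of neutrophil markers. In NMO, the library with the highest monocyte sum, 97.2 CPM in replicate 1, had the lowest Fcgr2b level, 110 CPM. Fcgr3 in NMO+CL, at 961, 1334 and 1531 CPM, followed the order of the border macrophage sums, at 226, 285 and 412 CPM, and in Normal and in NMO it did not. That order was set by Cbr2, at 185, 247 and 395 CPM, and the other 7 border macrophage markers summed to 40.9, 38.6 and 17 CPM, the opposite order. The part of these cells in the levels of Fcgr4, Fcgr2b and Fcgr3 was not tested, nor was that of the lower microglia markers in NMO+CL.

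**Figure D5:**
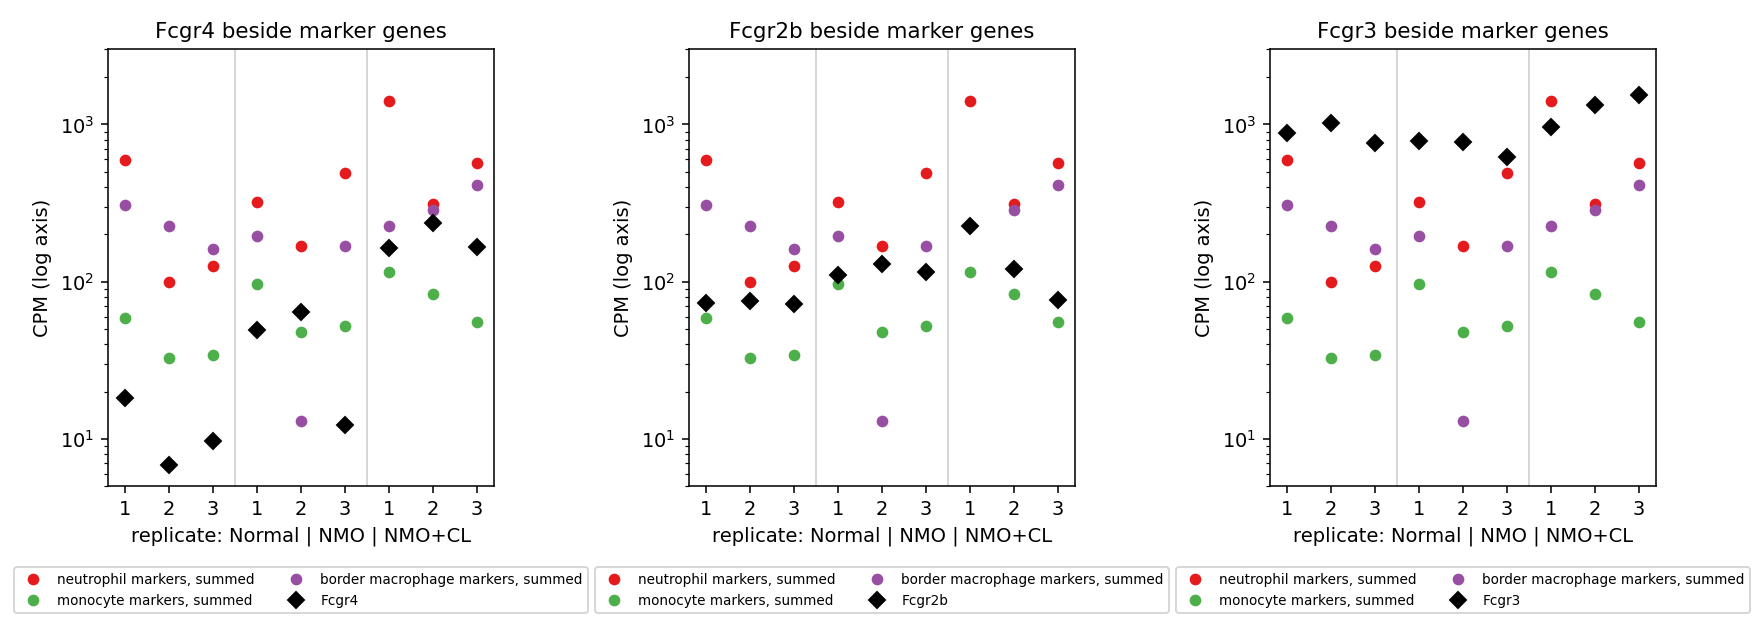
CPM on a log axis of Fcgr4, Fcgr2b and Fcgr3 (black) in each library, beside the summed CPM of neutrophil, monocyte and border macrophage markers. The neutrophil sum is highest in NMO+CL replicate 1, at 1418 CPM, and the Fcgr4 level in NMO+CL replicate 2, at 235 CPM.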

How the data were processed

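RNA of sorted microglia was sequenced from QuantSeq 3′ libraries in 9 pools of mice. The authors aligned single-end reads with Bowtie2, and per the submitters' processing notes to mm10 with bedtools for counting. The deposited values are read counts per gene, from unique and multiple alignments, with no normalization, as whole numbers with a different total in each library (5788234 to 7837219). Counting annotation, strand and versions are not given in the sources used here. The 35 symbols on more than 1 entry were summed, and no entry lacked a name.

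Counts were analysed in R 4.3.3 with edgeR 4.0.16: filterByExpr (minimum count 10, minimum total 15) left 12292 genes, library sizes were scaled by TMM, and a quasi-likelihood model with 1 coefficient per group was fitted to all 9 libraries, so that all 3 comparisons shared 1 estimate of the spread (common biological coefficient of variation 0.519). F-tests were two-sided, the Benjamini-Hochberg adjustment ran over all tested genes, and genes were called at an adjusted p under 0.05. Standard errors were derived from the F statistic, and intervals are 95%. Alternatives used limma 3.58.1 (voom) and DESeq2 1.42.0, library totals alone, no filter, the replicate number as a block, and each library left out. Replicate counts differed by more than counting noise (chi-square per degree of freedom 21.9 to 51.1). Nothing says that pools came from separate experiments, so p values measure only the spread between these pools.

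The 7 genes and the gene lists were chosen with earlier results of these data known, and a few genes of the lists are not reported here and enter no list count or sum. Named were the 7 genes, up to 5 rises and 5 falls called per comparison in 4 signalling lists (proximal kinases and activating effectors, inhibitory effectors, other Fc receptors and relatives, and other ITAM adaptors and receptors that use Fcer1g), Tyrobp, Lyn, Inpp5d, Ptpn6, Btk, Plcg2, Fcrls and B2m whatever their values, the 3 genes most alike each called gene, and cell markers that moved with a result. Coordinates and transcript ends are from GENCODE M21, and promoters from RefSeq for GRCm38.p6.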

Additional observations from a re-analysis of the deposited data

How the results depend on the processing

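The results rest on 3 pools a group, and counts of called genes near the threshold moved with single libraries and with the scaling; causes were not tested. Of the 7 genes, 0, 2 and 1 were called in NMO against Normal, NMO+CL against NMO and NMO+CL against Normal. With library totals alone these were 1, 1 and 2, with no filter on low counts 1, 2 and 2, and with DESeq2 0, 2 and 4. Leaving out 1 library gave 0 to 1, 0 to 2 and 1 to 2. Of the 52 signalling genes, 0, 1 and 7 were called, with DESeq2 0, 3 and 11 and with no filter 2 in NMO+CL against NMO, and leaving out 1 library gave 0, 0 to 2 and 2 to 7. The mean log2 ratio of activating to inhibitory receptor reads was 3.90 to 4.05, 3.12 to 3.28 and 3.37 to 4.38 in Normal, NMO and NMO+CL with 1 library left out, and 3.59, 2.61 and 3.30 with Fcgr3 alone. Library totals alone moved the median log2 fold change of all genes in NMO against Normal to 0.10. Counting without Rn45s in the library sizes, an alternative chosen after seeing the data, changed no call of the 7 genes. Over all genes, calls higher and lower were 58 and 3, 65 and 131, and 589 and 545. They were 162 and 60, 193 and 272, and 795 and 781 with DESeq2, 185 and 38, 180 and 316, and 737 and 711 with no filter, and 95 and 1, 52 and 142, and 651 and 456 with library totals alone.

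No signal shared by libraries of the same replicate number was seen. Deviations from group means correlated at -0.0148 to 0.0302 between libraries of the same number and at -0.0431 to 0.0306 between others. These values cannot tell whether pools of the same number were prepared together. With the replicate number as a block, Fcgr3 (log2 fold change 0.81, adjusted p = 0.0460) and Fcgr4 (2.35, 0.00674) were still called in NMO+CL against NMO and Fcgr4 (4.06, 2.87e-05) against Normal, and the counts of the 7 genes were as without it. Of the signalling genes, Fcrl1 was not called with the block (adjusted p = 0.0579).

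Signs turned in 31 cases, none of a called value, with log2 fold changes of at most 0.28 and adjusted p values of at least 0.674. With library totals alone these were Fcer1g (0.076), Inpp5d (0.018) and Pik3cg (0.081) in NMO against Normal and Tyrobp (-0.043) in NMO+CL against NMO. Tyrobp also turned with DESeq2 in NMO against Normal (-0.0030) and in NMO+CL against NMO with limma-voom (-0.026) and the replicate block (-0.035). The other 24 turned when 1 library was left out, and the log2 fold changes then spanned 0. In NMO against Normal they ran from -0.15 to 0.087 for Fcer1g, -0.34 to 0.057 for Fcgrt, -0.12 to 0.18 for Tyrobp, -0.30 to 0.13 for Pik3cg and -0.15 to 0.30 for Dok3. In NMO+CL against NMO they ran from -0.0018 to 0.16 for Fcgr1, -0.28 to 0.54 for Fcgr2b, -0.15 to 0.22 for Tyrobp, -0.30 to 0.066 for Inpp5d, -0.076 to 0.66 for Btk and -0.33 to 0.11 for B2m. In NMO+CL against Normal they ran from -0.060 to 0.15 for Syk, -0.13 to 0.24 for Tyrobp and -0.68 to 0.065 for Btk.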

Other observations

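Receptors outside the Fc gamma family that signal through Fcer1g were near or at the limit of detection, and their values were chosen after they were seen. Clec4d, a C-type lectin, had 0 counts in each Normal library, 9, 10 and 13 counts in NMO and 0, 18 and 61 counts in NMO+CL, and it was not called (adjusted p = 0.409 in NMO against Normal and 0.0681 in NMO+CL against Normal). Clec4e, a lectin that binds mycobacterial and damage-associated lipids, had 0 counts in each Normal library, 38, 4 and 0 in NMO and 31, 8 and 9 in NMO+CL, and was not tested. A count of 0 allows up to 3 counts, for counting error only. Fcer1a, the binding chain of the IgE receptor that Fcer1g also serves, had 0 counts in all 9 libraries, as had Gp6, the collagen receptor of platelets, and Fcamr, a receptor for IgA and IgM.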
